A study of Rattus norvegicus with 60 samples.

Results

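The comparison described here set 6 vehicle rats, numbered 1 to 6 in the sample titles, against the other 6 vehicle rats, numbered 7 to 12. These 12 arrays were part of a series of 60, and no animal in the comparison had received an insecticide. All 12 were adult male Long-Evans rats (PND62-PND64) that had been gavaged once with corn oil at 1 mL/kg, and the frontal cerebrocortex was taken 6 h later. The other 48 arrays came from rats of the same strain, sex and age given deltamethrin (0.3, 1 or 3 mg/kg) or permethrin (1, 10 or 100 mg/kg), with 8 rats a dose. RNA of each rat was hybridized without pooling to its own Affymetrix rat expression array, which measured 31042 probe sets. In the dosed rats, the matching sets were the 18 rats numbered 1 to 3 and the 30 rats numbered 4 to 8 within their dose. The methods of the study describe cohorts exposed on separate days and combined for the arrays. The set sizes used here equal those cohort sizes, but the labels assign no rat to a cohort. Exposure day, tissue collection and any later handling that followed the same split therefore cannot be told apart.

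The 12 vehicle rats were selected by the comparison itself, which used the values of all probe sets on their arrays, so the vehicle differences are given as a description with no test. The test was run in the 48 dosed rats, whose values did not enter that choice. A difference is always the lower-numbered set minus the higher-numbered set, on the log2 scale, where 1 unit is a doubling of signal. The p-values measure only the spread between these rats, and the number of arrays limits the precision.

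Frontal cortex is a mixture of excitatory and inhibitory neurons, astrocytes, oligodendrocytes, microglia and vessel cells. A whole-tissue array reads the RNA of all of them together. A lower signal can come from fewer cells of a type or from less RNA in each cell, and a bulk sample does not separate these. Many of the genes named below belong to the synapse, where vesicle proteins release transmitter from the presynaptic terminal and scaffold proteins hold glutamate receptors in place on the postsynaptic side.

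The arrays separated by set before any gene was picked out. Each of the 12 vehicle arrays had its highest correlation, after centring each probe set, with an array of its own type of set, and over all arrays this held for 59 of 60. The first principal component of the 60 arrays carried 58% of the variance and the second 10.8%. A first-component score above 20 was seen in 14 arrays, whose scores ran from 24.5 to 90.1. These were vehicle rats 4 and 5 and 12 of the 18 dosed rats numbered 1 to 3, and none came from a higher-numbered set. The highest score outside them was 17.9, in a rat numbered 7 that had received 1 mg/kg deltamethrin. These 14 arrays are called the arrays that stand apart, and the printed dosed difference of a gene is also given without them where their removal moved it by over 1.5 times. Results without them were added after the data had been seen. For further probe sets of a gene, beyond its brightest, dosed differences are given only with these arrays included.

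**Figure D1:**
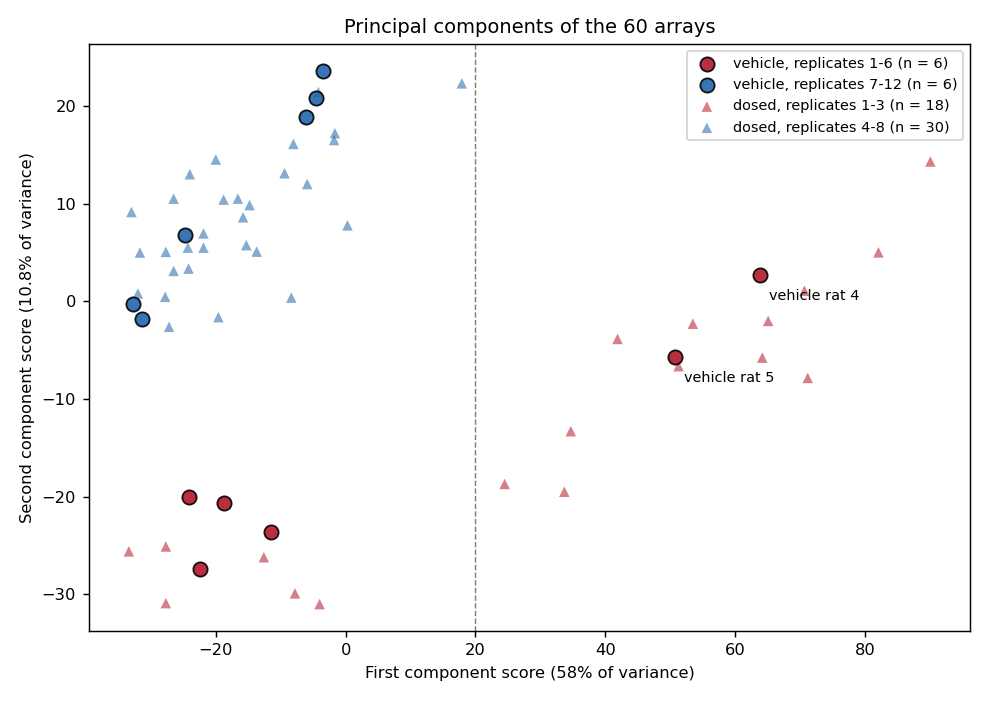
Scores of the 60 arrays on the first and second principal components (no unit); circles are vehicle rats, triangles dosed rats, red the lower-numbered and blue the higher-numbered sets, and the dashed line marks a first-component score of 20. The 14 arrays right of the line are all red, and left of it the red arrays lie below the blue ones.

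Among the vehicle rats alone, the first component carried 53.5% of the variance and placed rats 4 and 5 at 70.7 and 55.7, with the other 10 rats between -27.4 and 6.1. The second carried 17.7% and held the sets apart, with replicates 1 to 6 between -23.8 and -6.7 and replicates 7 to 12 between 4.7 and 26.4. Vehicle rats 4 and 5 correlated with each other at 0.995 but with rats 1, 2, 3 and 6 only at 0.959 to 0.978. Those 4 rats correlated with one another at 0.993 to 0.995 and with replicates 7 to 12 at 0.983 to 0.993. No array held the same values as another. The array medians ran from 7.09 to 7.18 in replicates 1 to 6 and from 7.13 to 7.20 in replicates 7 to 12.

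The difference between the sets took 20.6% of the summed variance of the 12 vehicle arrays, and 32.4% without rats 4 and 5. Most probe sets differed little. The middle of the distribution lay between -0.10 and 0.09 (quartiles), and the 1st and 99th percentiles were -0.58 and 0.59. A difference of at least 1 log2 unit was seen for 81 probe sets, of which 33 were higher in replicates 1 to 6 and 48 lower. For 938 probe sets (3.02% of all) all 6 rats numbered 1 to 6 lay above all 6 numbered 7 to 12, and for 530 (1.71%) all 6 lay below. Counted with 1 probe set for each of 14217 named genes, these were 520 genes (3.66%) above and 190 genes (1.34%) below. Without rats 4 and 5 the counts of probe sets were 1609 above and 1404 below, where 4 against 6 rats separate more easily than 6 against 6.

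The 8 genes with the largest vehicle differences among those higher in replicates 1 to 6 without overlap were, in order, Scaf1, Epn1, Rph3a, Nlgn2, Nfic, Fam219a, Atf5 and RT1-N2. Scaf1 (1367984_at), a protein that binds the tail of RNA polymerase II, had 9.77, 9.80, 10.17, 10.03, 10.15 and 10.06 in vehicle rats 1 to 6, against 8.73, 8.47, 8.47, 8.44, 8.28 and 8.55 in rats 7 to 12. The gap between the lowest of the upper set and the highest of the lower set was wider than either set. The vehicle difference of Scaf1 was 1.51, from 10.00 ± 0.17 in replicates 1 to 6 and 8.49 ± 0.15 in replicates 7 to 12 (SD, n = 6 each). Epn1 (1369453_at), an epsin that works in clathrin-mediated endocytosis, had 10.44, 10.67, 10.49, 10.65, 10.86 and 10.65 in rats 1 to 6, against 9.45, 9.26, 9.28, 9.44, 9.30 and 9.21 in rats 7 to 12. Nfic (1375342_at), a transcription factor of the nuclear factor I family, had 9.94, 9.96, 9.79, 9.89, 9.91 and 9.93 in rats 1 to 6, against 8.72, 8.82, 8.57, 8.90, 9.0 and 8.89 in rats 7 to 12. Rats 4 and 5 were in the midst of their set for Nfic, and its difference was 1.09 with or without them. Cabp1 (1369886_a_at), a neuronal calcium sensor named for its p in dosed rats, had 10.37 to 10.58 (median 10.56) in replicates 1 to 6, against 9.45 to 9.73 (median 9.61) in replicates 7 to 12.

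Proteins of the synapse were found on both of its sides. Dlgap3 (1376233_at), a postsynaptic scaffold also named for its p in dosed rats, ran from 10.88 to 11.35 (median 11.04) in replicates 1 to 6, against 9.98 to 10.27 (median 10.13) in replicates 7 to 12. Rph3a (1369054_at), rabphilin, which binds Rab3 on synaptic vesicles, ran from 6.98 to 7.93 (median 7.33), against 5.86 to 6.53 (median 6.17). Nlgn2 (1368895_at), the neuroligin of inhibitory synapses, ran from 7.03 to 8.23 (median 7.65) in replicates 1 to 6, against 6.48 to 6.68 (median 6.54) in replicates 7 to 12. For Rph3a and Nlgn2 rat 4 was the lowest of its set, and the differences of 1.23 and 1.12 became 1.34 and 1.33 without rats 4 and 5. A dimmer probe set of Nlgn2 (1397705_at) overlapped between the vehicle sets and differed by 0.14. Nat8l, which makes N-acetylaspartate, Atf5, a stress-regulated transcription factor, and Pdgfa, a growth factor for oligodendrocyte precursors, had vehicle differences of 0.96, 1.01 and 0.95, and none of them overlapped. Fam219a and RT1-N2, a class I histocompatibility gene, differed by 1.05 and 0.99.

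Among the lower genes, Id2 (1375532_at), an inhibitor of basic helix-loop-helix transcription factors, had 10.10, 9.86, 10.03, 9.49, 9.44 and 9.97 in vehicle rats 1 to 6, against 11.63, 11.45, 11.37, 11.53, 11.09 and 11.52 in rats 7 to 12. Its difference was -1.62, or -1.44 without rats 4 and 5. Cbx1 (1374695_at), a heterochromatin protein, ran from 6.49 to 7.65 (median 7.15) in replicates 1 to 6, against 8.43 to 8.84 (median 8.66) in replicates 7 to 12. Dnajb14 (1384376_at), a co-chaperone of the endoplasmic reticulum membrane, ran from 6.67 to 7.42 (median 7.06), against 8.00 to 8.76 (median 8.34). None of these sets overlapped. Abca1, which exports cholesterol from cells, and Mcl1, an anti-apoptotic protein, differed by -0.95 and -0.77 between the vehicle sets, again with no overlap. Zbtb41, a zinc finger gene, and Tmem33, of the endoplasmic reticulum membrane, differed by -1.10 and -1.09.

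**Figure D2:**
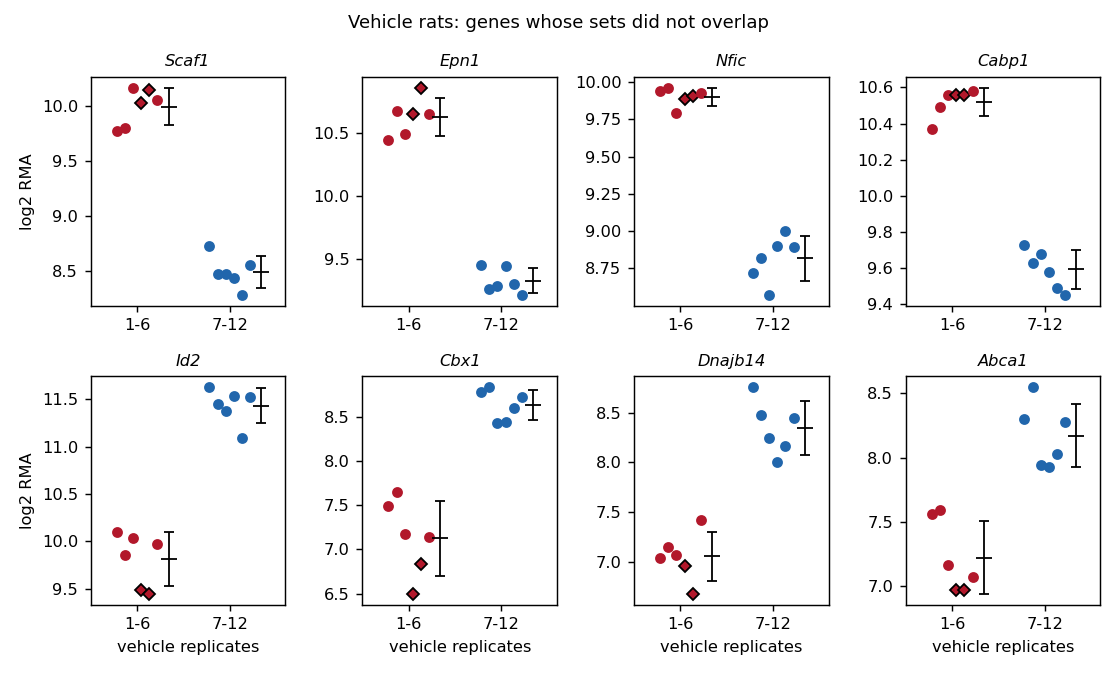
Signal (log2 RMA) of 8 genes in each vehicle rat, replicates 1 to 6 on the left in red and 7 to 12 on the right in blue; diamonds are rats 4 and 5, and the bars give mean ± SD (n = 6). Scaf1, Epn1, Nfic and Cabp1 are higher and Id2, Cbx1, Dnajb14 and Abca1 lower in replicates 1 to 6, with no overlap.

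The same split of the dosed rats was then tested with limma, with a term for each of the 6 doses. At an adjusted p under 0.05, 9815 probe sets (31.6%) were higher and 8454 (27.2%) lower in the rats numbered 1 to 3, together 18269 or 58.9% of all. With 1 probe set a gene, 5585 genes (39.3%) were higher and 3403 (23.9%) lower. More than every second gene was thus called, and a gene's call alone sets it little apart from the rest. Without the 12 dosed arrays that stand apart (6 against 30 rats), 2110 genes (14.8%) were higher and 2899 (20.4%) lower. That fit held no rat numbered 1 to 3 at 10 mg/kg permethrin, so this dose did not contribute to its set difference. Most of its 6 lower-numbered rats had received deltamethrin, so it was not balanced between the compounds. Of the probe sets called in both fits, 5429 had the same direction and 1310 the opposite one. Of the 520 genes above and 190 below without overlap in vehicle rats, 517 and 185 were called in the same direction in dosed rats, and 458 and 175 without the arrays that stand apart. The split of calls between higher and lower also moved with the scaling: 53.7% of the called probe sets were higher as deposited and 66.1% after centring each array on its median.

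Across the 14217 genes, the vehicle and dosed differences had a Pearson correlation of 0.85 and a Spearman correlation of 0.84. Without the arrays that stand apart these were 0.89 and 0.85. The values are given as a description, since genes of one array share its hybridization and are not independent, and the 60 arrays were normalized together. Ttr, the thyroxine carrier made by the choroid plexus, lay far off this relation, with a vehicle difference of -2.03 and a dosed difference of -0.22.

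**Figure D3:**
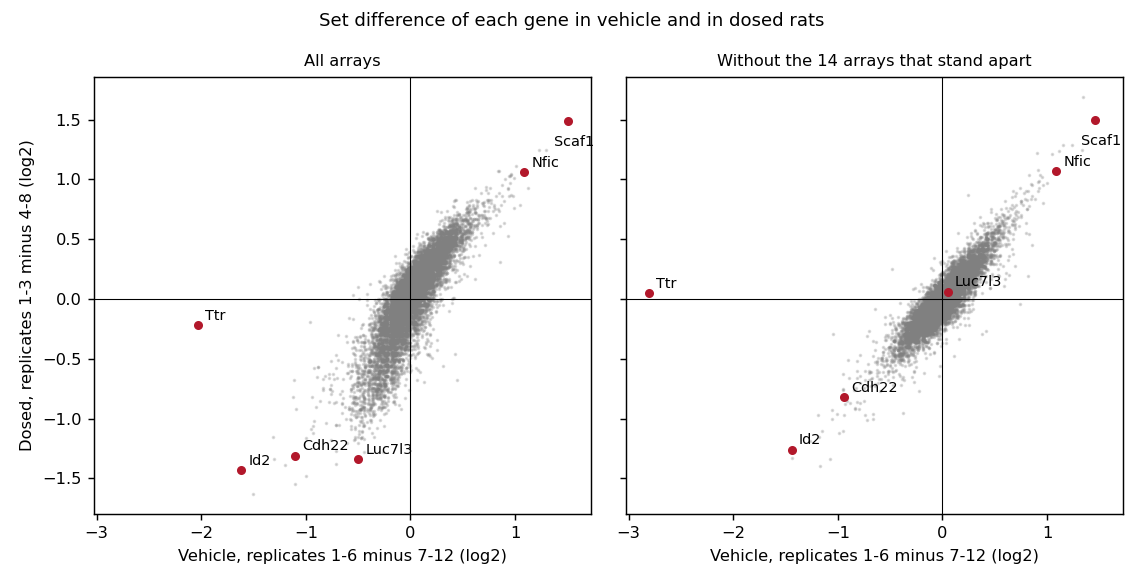
Difference of each of 14217 genes (log2, 1 probe set a gene) between the vehicle sets (horizontal) and between the dosed sets (vertical), over all arrays on the left and without the 14 arrays that stand apart on the right; red points are named genes. Scaf1 and Nfic at the upper end and Id2 at the lower end keep their places, Luc7l3 moves to near 0, and Ttr lies off the cloud in both.

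The vehicle and dosed differences of single genes could be close or well apart. Scaf1, Nfic, Epn1 and Cabp1 had the lowest p in dosed rats among the higher genes, so their small SE is part of how they were chosen. Scaf1 ran from 9.74 to 10.49 (median 10.09) in dosed rats numbered 1 to 3, against 8.02 to 9.35 (median 8.61) in those numbered 4 to 8. No dosed rat of one set reached the other, and the dosed difference of Scaf1 was 1.49 ± 0.07 (SE, limma adjusted p = 9.31e-20). Within single doses it lay between 1.18 and 1.81. Nfic had the lowest p among the named genes, with 9.58 to 10.42 (median 9.88) against 8.58 to 9.22 (median 8.82) and a difference of 1.06 ± 0.05 (SE, limma adjusted p = 6.09e-21). Epn1 rose by 1.25 ± 0.06 (limma adjusted p = 1.43e-19) and Cabp1 by 0.92 ± 0.05 (limma adjusted p = 9.31e-20), and neither overlapped between the dosed sets. Without the arrays that stand apart, the differences of Scaf1, Nfic, Epn1 and Cabp1 were 1.5, 1.07, 1.29 and 0.98. Of the genes ranked by vehicle difference, Fam219a differed by 1.05 in vehicle rats and 0.79 ± 0.13 in dosed rats (SE, limma adjusted p = 1.38e-06), where it was 1.29 without the arrays that stand apart. RT1-N2 differed by 0.99 in vehicle and 0.76 in dosed rats, Zbtb41 by -1.10 and -1.55, and Tmem33 by -1.09 and -0.92, or -0.66 in dosed rats without the arrays that stand apart. Another probe set of Cabp1 (1396749_at), at a mean of 6.95, went the other way in dosed rats, by -0.33 ± 0.07 (SE, limma adjusted p = 3.61e-05).

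Genes with smaller differences, and genes that were lower, could be as cleanly apart. Adrm1, a ubiquitin receptor of the proteasome, was 8.73 to 9.33 (median 8.97) in rats numbered 1 to 3, against 7.92 to 8.44 (median 8.15), a difference of 0.83 ± 0.04 (SE, limma adjusted p = 2.18e-19). Id2 was 8.87 to 10.59 (median 9.80) in rats numbered 1 to 3, against 10.70 to 12.03 (median 11.20), a difference of -1.43 ± 0.11 (SE, limma adjusted p = 1.42e-14). Abca1 differed by -1.09 ± 0.07, with a limma adjusted p of 7.31e-17, but its dosed sets overlapped, with 6.62 to 7.70 against 7.50 to 8.44. Lrp6, a Wnt co-receptor, and Vcl, vinculin of cell adhesions, differed by -0.60 and -0.52, and neither overlapped between the 18 and the 30 dosed rats. In vehicle rats Lrp6 and Vcl differed by -0.52 and -0.40.

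Whether the set difference itself differed between the compounds was tested as an interaction in the same 48 arrays, deltamethrin minus permethrin. At an adjusted p under 0.05 in limma, 0 of 31042 probe sets (0%) were called, with a lowest adjusted p of 0.0926, and 4967 had an unadjusted p under 0.05. This does not show that the sets differed alike under both compounds. The count rested on single rats. It was 2668 without rat 3 of 1 mg/kg permethrin and 2150 without rat 1 of 100 mg/kg permethrin. These were the only permethrin rats numbered 1 to 3 outside the arrays that stand apart. Leaving out any other rat gave 0 or 1, and leaving out all the arrays that stand apart gave 1. Whether the uneven share of those arrays between the compounds bears on the count was not tested.

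Counts of list members are read against all genes, of which 39.3% were higher and 23.9% lower in dosed rats numbered 1 to 3, and 14.8% higher and 20.4% lower without the arrays that stand apart. Of 17 genes of vesicle release, 9 were higher and 5 lower in dosed rats numbered 1 to 3, and without the arrays that stand apart 9 were higher and 2 lower. The list's median was 0.10 with and 0.21 without those arrays, against 0.05 and -0.03 over all genes. Vamp2 (1369974_at), the vesicle SNARE, had 12.40, 12.31, 12.51, 12.40, 12.63 and 12.29 in vehicle rats 1 to 6, against 11.92, 11.73, 11.70, 11.68, 11.63 and 11.73 in rats 7 to 12, and rose by 0.69 ± 0.06 in dosed rats (limma adjusted p = 3.48e-13). Stx1a, its partner on the plasma membrane, ran from 11.44 to 11.80 (median 11.58) in replicates 1 to 6, against 10.78 to 11.13 (median 11.09) in replicates 7 to 12. The dosed difference of Stx1a was 0.55 ± 0.05 (SE, limma adjusted p = 3.79e-13). Syn1, synapsin on the vesicle surface, differed by 0.34 in vehicle and 0.36 in dosed rats. Rims1, of the release site, had 10.38, 10.23, 10.24, 9.30, 9.57 and 10.44 in rats 1 to 6, against 9.38, 9.36, 9.22, 9.23, 9.54 and 9.17 in rats 7 to 12. For Rims1 rat 4 lay within the range of the other set and rat 5 just above it, and the vehicle difference was 0.71 with and 1.00 without these rats. Cplx2, complexin, went down by 0.32 ± 0.08 in dosed rats (limma adjusted p = 0.000313), and its difference was -0.51 without the arrays that stand apart. The dosed difference of Rims1 was 0.45 with and 0.97 without those arrays. Snap25, the other membrane SNARE, was lower in dosed rats by 0.33 ± 0.07 (limma adjusted p = 3.89e-05), but its difference was 0.06 without the arrays that stand apart (limma adjusted p = 0.284).

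Glutamate receptor subunits went both ways. Of 23 subunits, 7 were higher and 10 lower in dosed rats numbered 1 to 3, and 5 higher and 4 lower without the arrays that stand apart, with list medians of 0.02 and -0.06. Of all genes 39.3% were higher and 23.9% lower, and 14.8% and 20.4% without those arrays. Grin2d (1368951_at), an NMDA receptor subunit found mainly in interneurons, had 7.39, 7.49, 7.57, 8.29, 8.15 and 7.14 in vehicle rats 1 to 6, against 6.67, 6.71, 6.68, 6.59, 6.89 and 6.85 in rats 7 to 12. Rats 4 and 5 were the highest, and the other 4 were still above all of rats 7 to 12. Grin2a (1380861_at), the NMDA receptor subunit of mature cortex, had the opposite pattern, with 8.06 to 9.12 (median 8.83) in replicates 1 to 6, against 9.63 to 10.25 (median 9.94) in replicates 7 to 12. In dosed rats Grin2d differed by 1.03 ± 0.06 (SE, limma adjusted p = 3.13e-17) and Grin2a by -1.39 ± 0.14 (SE, limma adjusted p = 6.29e-11). Grin1, the subunit all NMDA receptors share, differed by 0.37 ± 0.05, or 0.18 without the arrays that stand apart. Grik5, a kainate receptor subunit, was higher by 0.77 in vehicle and 0.83 in dosed rats, while Grm5, a metabotropic receptor, was lower by 0.65 and 0.88. Without the arrays that stand apart the dosed difference was 0.70 for Grik5 and -0.47 for Grm5. The AMPA receptor subunits Gria2 and Gria3 differed by -0.81 and -0.89 in dosed rats, and by 0.27 and 0.18 without those arrays.

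Ion channels and inhibitory receptors included genes of both kinds. Of 75 potassium channel genes, 36 were higher and 9 lower in dosed rats numbered 1 to 3, and 27 higher and 11 lower without the arrays that stand apart, with medians of 0.09 and 0.02, against 0.05 and -0.03 over all genes. Over all genes the shares were 39.3% higher and 23.9% lower, and 14.8% and 20.4% without those arrays. Kcnmb4, a subunit of calcium-activated potassium channels, ran from 11.23 to 11.58 (median 11.42) in vehicle replicates 1 to 6, against 10.95 to 11.16 (median 11.10) in replicates 7 to 12. Its dosed difference was 0.43 ± 0.04 (SE, limma adjusted p = 2.42e-13), and 0.27 without the arrays that stand apart. Cacna1g, a T-type calcium channel, was higher by 0.31 in vehicle and 0.37 in dosed rats. Cacna1h, another T-type channel, was lower by 0.56 in both, with a dosed difference of -0.87 without the arrays that stand apart, although a dimmer probe set of it (1379197_at) was higher by 0.15 in dosed rats. Of 12 sodium channel subunits, the targets of pyrethroids, 1 was higher and 6 lower in dosed rats, and 2 and 2 without the arrays that stand apart. Scn3b, an accessory subunit, had no overlap between the vehicle sets, with 10.82 to 11.24 (median 11.18) in replicates 1 to 6, against 11.27 to 11.51 (median 11.35) in replicates 7 to 12. Its dosed difference was -0.44 with and -0.22 without the arrays that stand apart. Another probe set of Scn3b (1370850_at), at a mean of 10.73, overlapped between the vehicle sets and differed there by 0.15, or 0.30 without rats 4 and 5. In dosed rats that probe set differed by 0 ± 0.06 (limma adjusted p = 0.975). Of 18 GABA receptor subunits 1 was higher, Gabrd of extrasynaptic receptors with 0.48 ± 0.06 in dosed rats (limma adjusted p = 1.79e-09), and 8 were lower. Without the arrays that stand apart 4 were higher and 2 lower, and Gabrd differed by 0.16 (limma adjusted p = 0.0176).

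Genes of energy metabolism went both ways. Of 16 hypoxia and glycolysis genes, 11 were higher and 1 lower in dosed rats numbered 1 to 3, and 5 higher and 1 lower without the arrays that stand apart. Pfkl, a phosphofructokinase, had 9.58, 9.80, 9.82, 10.16, 10.09 and 9.74 in vehicle rats 1 to 6, against 9.52, 9.19, 9.10, 8.95, 9.06 and 8.88 in rats 7 to 12, and rose by 0.83 ± 0.06 in dosed rats (limma adjusted p = 9.61e-15). Hk1, the hexokinase of brain, and Eno2, neuronal enolase, did not overlap between the vehicle sets and were higher by 0.29 and 0.28. The dosed difference of Eno2 was 0.22 with and 0.36 without the arrays that stand apart. Of 76 respiratory chain genes, 31 were higher and 20 lower, with a median of 0.05 that equals the one over all genes, and 14 were higher and 14 lower without those arrays, with a median of -0.01. Uqcrfs1, an iron-sulfur subunit of complex III, was higher by 0.44 in vehicle and 0.51 in dosed rats, or 0.29 without the arrays that stand apart. Cox5a of complex IV was lower by 0.49 in vehicle and 0.43 in dosed rats. Of 48 ribosomal protein genes, 18 were higher and 17 lower, and 13 and 12 without the arrays that stand apart. Over all genes 39.3% were higher and 23.9% lower, and 14.8% and 20.4% without those arrays. None of the 48 was without overlap in vehicle rats, where 3.66% of all genes lay above and 1.34% below without overlap.

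Clock genes keep daily time in most cells through loops of activators and repressors. Of 18, 7 were higher and 6 lower in dosed rats numbered 1 to 3, where 39.3% of all genes were higher and 23.9% lower. Without the arrays that stand apart 4 were higher and 2 lower, against 14.8% and 20.4% of all genes. Nr1d1, the REV-ERB alpha repressor of the clock, had 8.82, 9.18, 9.17, 9.18, 9.23 and 9.29 in vehicle rats 1 to 6, against 8.67, 8.64, 8.6, 8.35, 8.41 and 8.67 in rats 7 to 12. Its dosed difference was 0.65 ± 0.06 (SE, limma adjusted p = 7.21e-13). Rorb, a nuclear receptor that also marks layer IV neurons, was lower by 1.00 in vehicle and by 1.16 ± 0.12 in dosed rats (limma adjusted p = 3.38e-11), with a dosed difference of -0.66 without the arrays that stand apart. Per1 differed by 0.27 in dosed rats and by 0.04 without the arrays that stand apart. The paralogue Nr1d2 differed by -0.47 with those arrays and 0.42 without them.

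The splicing factors turned on the arrays that stand apart. Of 47 genes, 4 were higher and 36 lower in dosed rats numbered 1 to 3, with a median of -0.46, but 8 were higher and 3 lower without those arrays, with a median of 0.06. The shares over all genes were 39.3% higher and 23.9% lower, and 14.8% and 20.4% without those arrays. In vehicle rats the list's median was -0.19, and 0.06 without rats 4 and 5. Luc7l3 (1399018_at), a splicing factor of the U1 particle, had 10.97, 10.24, 10.24, 8.89, 9.03 and 10.98 in vehicle rats 1 to 6, against 10.96, 10.88, 10.09, 10.42, 10.85 and 10.13 in rats 7 to 12. Clk4 (1399141_at), a kinase of SR splicing factors, had 8.32, 8.11, 8.08, 6.59, 6.87 and 8.27 in rats 1 to 6, against 8.44, 8.39, 7.89, 8.03, 8.40 and 7.95 in rats 7 to 12. For both genes rats 4 and 5 were the lowest of all 12, and the other 4 rats overlapped with rats 7 to 12. The dosed differences of Luc7l3 and Clk4 were -1.34 and -1.16, and 0.06 and -0.01 without the arrays that stand apart. Rbm39, another splicing factor, gave -1.17 and 0.07. A dimmer probe set of Luc7l3 (1377694_at) had no overlap in vehicle rats, with 6.75 to 7.35 against 7.52 to 8.05. It differed by -0.68 there, or -0.59 without rats 4 and 5, and by -0.66 ± 0.05 in dosed rats (limma adjusted p = 1.21e-13). Its probe set 1382957_at differed by -0.42 in vehicle rats and by 0.04 without rats 4 and 5, as the brightest one did. Clk1 and Prpf39, picked after their values were seen because they weighed heavily on the first component of the vehicle rats, were lowest in the same rats, with Clk1 at 7.67 and 8.25 in rats 4 and 5 and between 9.01 and 10.41 in the other 10. Hnrnpul1 and Luc7l did not follow them. Hnrnpul1, an RNA-binding protein, was higher by 0.73 in vehicle and 0.65 in dosed rats, and Luc7l lower by 0.22 and 0.26, with the same direction without the arrays that stand apart.

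**Figure D4:**
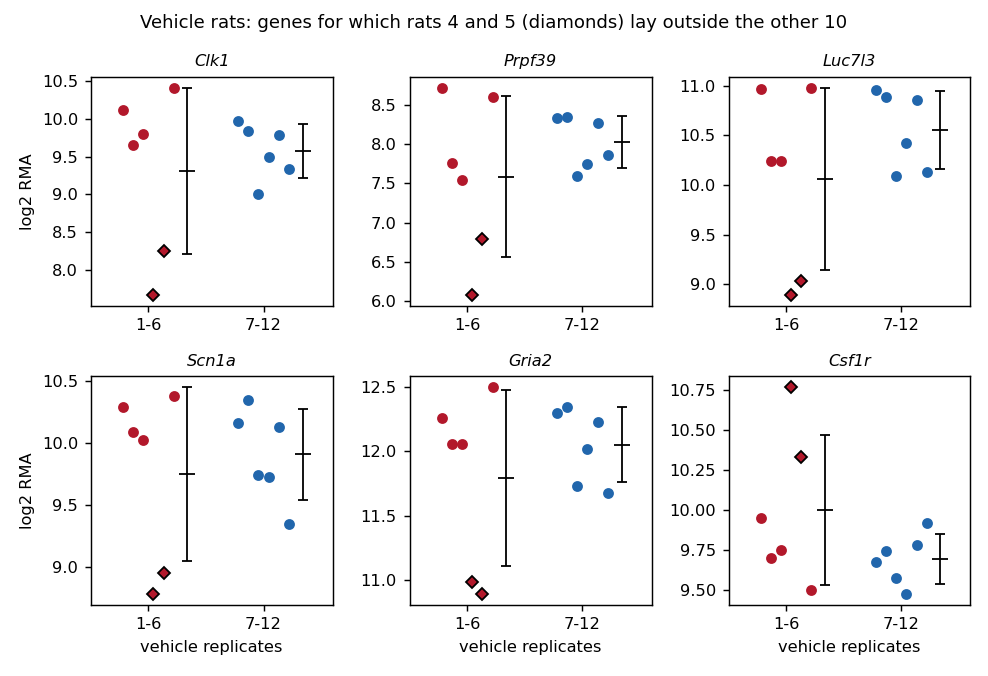
Signal (log2 RMA) of 6 genes in each vehicle rat, replicates 1 to 6 on the left in red and 7 to 12 on the right in blue; diamonds are rats 4 and 5, and the bars give mean ± SD (n = 6). In Clk1, Prpf39, Luc7l3, Scn1a and Gria2 rats 4 and 5 lie below the other 10 rats, and in Csf1r above them.

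The large sodium channels lay with the splicing factors in this respect. Scn1a, the pore-forming subunit of many interneurons, had 10.29, 10.09, 10.03, 8.78, 8.95 and 10.38 in vehicle rats 1 to 6, against 10.16, 10.35, 9.74, 9.73, 10.13 and 9.35 in rats 7 to 12. In dosed rats Scn1a and Scn2a differed by -0.65 and -0.66, and by 0.30 and 0.28 without the arrays that stand apart, both past the threshold in both fits (limma adjusted p = 0.000317 and 0.0471 for Scn1a, 0.000224 and 0.0076 for Scn2a). Gabrb2, a subunit of synaptic GABA receptors, differed by -1.15 and 0.08. Kcns1, a modulatory potassium channel subunit, moved up instead, with 8.87 and 8.56 in vehicle rats 4 and 5, 7.47 to 7.82 in the rest of their set and 7.06 to 7.72 in replicates 7 to 12. Its dosed difference was 0.93 with and 0.42 without the arrays that stand apart.

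Markers of the other cell types of cortex were set beside these results. Of 8 microglia markers, 5 were higher and 0 lower in dosed rats numbered 1 to 3, and none was called without the arrays that stand apart, with list medians of 0.33 and -0.08. For comparison, 39.3% of all genes were higher and 23.9% lower, and 14.8% and 20.4% without those arrays. Csf1r, the growth factor receptor of microglia, had 9.95, 9.70, 9.75, 10.77, 10.33 and 9.50 in vehicle rats 1 to 6, against 9.67, 9.74, 9.57, 9.47, 9.78 and 9.92 in rats 7 to 12. C1qb, a complement gene of microglia, was 9.16 and 8.89 in rats 4 and 5, with 7.87 to 8.59 in the rest of their set. In dosed rats Csf1r and C1qb differed by 0.39 and 0.43, and by -0.09 and -0.07 without the arrays that stand apart. Among 7 astrocyte markers 4 were higher and 3 lower, and 0 and 1 without those arrays, and Aqp4, the water channel, differed by -0.70 with and 0.10 without them. Of 8 oligodendrocyte markers 2 were higher and 1 lower, and 1 and 2 without those arrays. Mbp of myelin differed by 0.08 in vehicle and 0.04 in dosed rats. A dimmer probe set of Mbp (1383479_at) was lower, by 0.29 in vehicle and 0.33 ± 0.05 in dosed rats (SE, limma adjusted p = 6.33e-07). Its probe set 1387341_a_at differed by 0.12 in vehicle and 0.03 in dosed rats (limma adjusted p = 0.517). Sox10, a transcription factor of the whole oligodendrocyte lineage, had no overlap in vehicle rats and was higher by 0.70, and by 0.81 ± 0.07 in dosed rats (limma adjusted p = 5.69e-13), or 0.45 without the arrays that stand apart.

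Of 6 excitatory neuron markers 3 were higher and 2 lower in dosed rats, and 3 and 0 without the arrays that stand apart. The shares over all genes were 39.3% higher and 23.9% lower, and 14.8% and 20.4% without those arrays. Slc17a7, the vesicular glutamate transporter of cortical excitatory neurons, ran from 12.60 to 12.87 (median 12.80) in vehicle replicates 1 to 6, against 12.20 to 12.54 (median 12.38) in replicates 7 to 12. Camk2a, the kinase of excitatory synapses, ran from 12.34 to 12.70 (median 12.55), against 11.30 to 11.91 (median 11.72). Slc17a6, the glutamate transporter more typical of subcortical neurons, went the other way, with differences of -0.17 in vehicle and -0.37 in dosed rats, and 0.12 in dosed rats without the arrays that stand apart (limma adjusted p = 0.269). Dimmer probe sets of Camk2a (1368935_at, 1381637_at and 1389824_at) overlapped between the vehicle sets, with differences of 0.51, 0.02 and 0.29. None of these was called in dosed rats, at 0.19, -0.11 and 0.12 (limma adjusted p = 0.215, 0.365 and 0.321). Of 8 inhibitory neuron markers 3 were higher and 4 lower in dosed rats, and 3 and 1 without the arrays that stand apart. Pvalb and Slc32a1, the calcium buffer and the GABA transporter of interneurons, were higher by 0.55 and 0.49 in dosed rats, and by 0.33 and 0.44 without the arrays that stand apart. Gad1, which makes GABA in the same cells, was lower by 0.37, and by 0.12 without the arrays that stand apart (limma adjusted p = 0.129). What part cell makeup had in the set difference was not tested.

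Signal of the choroid plexus marker Ttr varied from rat to rat. Ttr had 7.66, 7.71, 7.83, 11.56, 8.45 and 7.48 in vehicle rats 1 to 6, against 12.68, 10.27, 7.91, 7.53, 13.56 and 10.91 in rats 7 to 12. The sets overlapped, with SDs of 1.56 and 2.44, so the vehicle difference of -2.03 was within the spread of the rats. In dosed rats Ttr differed by -0.22 ± 0.43 (SE, limma adjusted p = 0.68), or 0.05 without the arrays that stand apart, and 0 of 5 choroid plexus markers passed the test. Of 5 blood cell markers 1 was lower, and 2 without the arrays that stand apart. Of 8 meningeal and fibroblast markers 2 were higher and 3 lower, and 1 and 2 without those arrays. Among all genes 39.3% were higher and 23.9% lower, and 14.8% and 20.4% without those arrays.

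**Figure D5:**
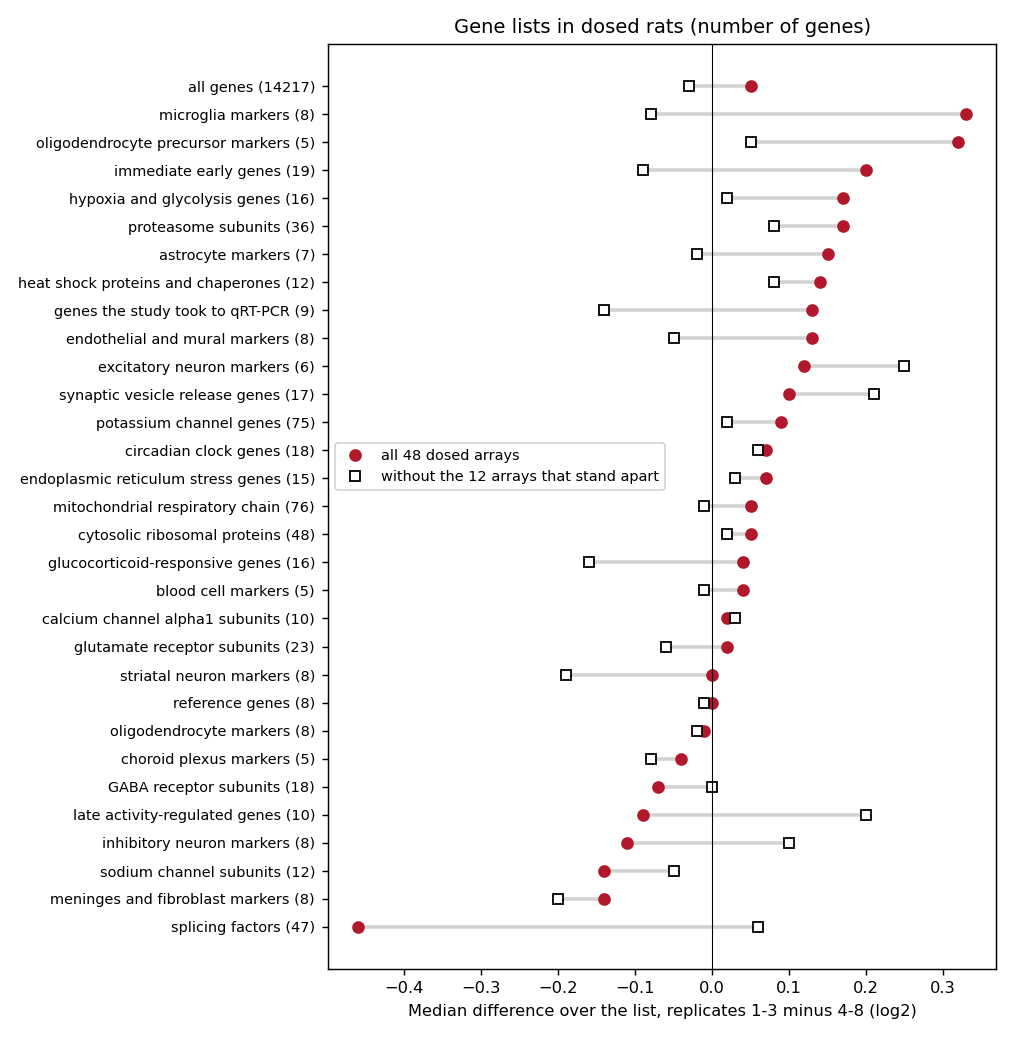
Median difference (log2) of each gene list between dosed rats numbered 1 to 3 and 4 to 8, over all 48 arrays (red circles) and without the 12 arrays that stand apart (open squares), with the number of genes in brackets. Splicing factors move from -0.46 to 0.06 and microglia markers from 0.33 to -0.08, while all genes lie at 0.05 and -0.03.

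Immediate early genes are transcribed within minutes of a stimulus, and the study took some of them to qRT-PCR. Of 19 immediate early genes 12 were higher and 2 lower in dosed rats numbered 1 to 3, but 1 was higher and 2 lower without the arrays that stand apart, with medians of 0.20 and -0.09. Among all genes 39.3% were higher and 23.9% lower, and 14.8% and 20.4% without those arrays. Egr1 had 11.38, 11.42, 11.12, 12.10, 11.75 and 11.97 in vehicle rats 1 to 6, against 11.36, 11.20, 11.06, 11.06, 11.04 and 11.06 in rats 7 to 12. Its dosed difference was 0.31 ± 0.08 (SE, limma adjusted p = 0.000801), and 0.11 without the arrays that stand apart (limma adjusted p = 0.477). Egr3, a related factor, differed by 0.33 and 0.32 in the same fits and was the 1 that stayed higher. Vgf, a secreted activity-regulated peptide precursor, was higher by 0.56 in vehicle and 0.59 in dosed rats.

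Of the 9 genes with a qRT-PCR assay, 3 were higher and 1 lower in dosed rats numbered 1 to 3, against 39.3% higher and 23.9% lower over all genes. Without the arrays that stand apart 1 was higher and 2 were lower, against 14.8% and 20.4% of all genes. None was free of overlap between the vehicle sets, where 3.66% of all genes lay above and 1.34% below without overlap. Fos differed by 0.21 in vehicle and 0.18 in dosed rats, and in dosed rats by -0.06 without the arrays that stand apart. Another probe set of Fos (1375043_at) differed by 0.27 in vehicle and -0.35 ± 0.19 in dosed rats (SE, limma adjusted p = 0.119). Its vehicle values were 6.16, 7.6, 5.72, 7.44, 8.18 and 8.50 in rats 1 to 6, against 7.66, 6.92, 6.57, 7.00, 6.68 and 7.14 in rats 7 to 12, and they overlapped. Fkbp5, a glucocorticoid-induced gene, differed by -0.18 and -0.14, or -0.28 in dosed rats without the arrays that stand apart, and a dimmer probe set of it (1380611_at) by 0.21 and 0.40. Bdnf, a neurotrophin, differed by 0.14 and 0.03, with vehicle values of 6.14 to 7.07 (median 6.80) in replicates 1 to 6, against 6.11 to 6.75 (median 6.63) in replicates 7 to 12, and by 0.44 in dosed rats without the arrays that stand apart (limma adjusted p = 0.00127). Camk1g, a calcium-dependent kinase whose vehicle values ran from 8.86 to 9.42 in replicates 1 to 6 and from 8.96 to 9.31 in replicates 7 to 12, differed by -0.01, and its dimmer probe set (1377518_at) by 0.18, with 0.39 ± 0.10 in dosed rats (limma adjusted p = 0.000572). Ddc, which makes dopamine and serotonin, Rassf5, a Ras effector, and Gpd1, a glycerol phosphate enzyme, differed by 0.01, -0.04 and -0.08 between the vehicle sets. A dimmer probe set of Gpd1 (1369560_at) differed by 0.19 in vehicle and 0.45 ± 0.09 in dosed rats (limma adjusted p = 7.11e-05), and one of Ddc (1375317_at) by -0.25 and -0.24. Without rats 4 and 5 the vehicle differences of the dimmer probe sets of Gpd1, Camk1g and Ddc were 0.01, 0 and -0.28. Hspb1, a small heat shock protein, differed by -0.11, and by -0.43 without rats 4 and 5, which had 8.47 and 7.88, with 7.16 to 7.36 in the rest of their set. In dosed rats Hspb1 differed by 0.08, and by -0.39 without the arrays that stand apart (limma adjusted p = 0.00039).

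Probe sets of one gene did not always move together. Of 2412 genes with more than 1 called probe set in dosed rats, 417 (17.3%) had probe sets called in opposite directions, and without the arrays that stand apart 349 of 1128 (30.9%) did. Cdh22, a cadherin, was lower by 1.31 in dosed rats at its brightest probe set (1368887_at), and its probe set 1388045_a_at was higher by 0.76 ± 0.07 (limma adjusted p = 4.59e-12). The brightest probe set of Cdh22 was lower by 0.82 without the arrays that stand apart. In vehicle rats the same probe sets of Cdh22 differed by -1.10 and 0.56. For Jund, a member of the AP-1 transcription factors, the brightest probe set (1393138_at) differed by -0.14 in dosed rats, or -0.22 without the arrays that stand apart, and 1387762_s_at by 1.39 ± 0.18 (SE, limma adjusted p = 1.45e-08). In vehicle rats these probe sets of Jund differed by -0.23 and 1.23. Dimmer probe sets could also lack the call of the brightest one. Nlgn2 (1397705_at), Cbx1 (1380109_at) and Hk1 (1398725_at) differed by 0.01, 0.01 and -0.03 in dosed rats (limma adjusted p = 0.914, 0.801 and 0.579). Vamp2 (1371160_at), Grin1 (1389900_at) and Abca1 (1383355_at) differed by 0.08, -0.14 and -0.06 there (limma adjusted p = 0.165, 0.21 and 0.313). Others of Cbx1 (1385157_at) and Abca1 (1394490_at) were called in the brightest one's direction, at -0.48 and -0.86. A gene's direction given above is therefore that of its brightest probe set.

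The differences were also described by signal level and by the base composition of the promoter. Over 10 bins of the 14217 genes by mean signal, the median vehicle difference lay between -0.02 and 0.04, the median dosed difference between 0.01 and 0.12, and the share of genes called in dosed rats between 35.1% and 78.3%. Over 10 bins of the 11733 genes matched to a RefSeq promoter (GRCr8) by GC content, the median vehicle difference lay between -0.03 and 0.03 and the median dosed difference between -0.01 and 0.08. Across these genes the correlation with GC content was 0.09 for the vehicle difference and 0.05 for the dosed difference, given as a description.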

How the data were processed

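The deposited values are log2 signals that the authors made with RMA, a method of background correction, quantile normalization and median-polish summary of probes; the array scans were not used here. The table held 60 arrays with values from 3.75 to 14.1. Gene symbols came from GEO's platform annotation, which can be old. Of 31042 probe sets 20826 had 1 symbol, 436 several and 9780 none, and probe sets with several or none were not named. Each of 14217 genes was represented by its single-symbol probe set with the highest mean over all arrays. Replicates are separate rats.

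The members, the 30 gene lists and the rule for named genes were chosen with earlier results of these data known. Genes were named if they had one of the 12 lowest p in a direction in dosed rats, one of the 8 largest vehicle differences in a direction without overlap, a place in a gene list by order of p, or a qRT-PCR assay in the study. A few list members were added after their values were seen. No test was run between the vehicle sets. The 48 dosed arrays were fitted with limma 3.58.1 (R 4.3.3), with dose group and set as terms, and p-values were adjusted by Benjamini-Hochberg across the whole array. The interaction of set with compound was fitted in the same way. The fit was first tested on simulated data with known differences. Noise there was drawn independently for each probe set, so that check does not cover spread that many probe sets of an array share. Figures were drawn with matplotlib 3.10.9. Alternatives changed the centring, the normalization, the filter on dim probe sets, the variance prior, the covariates and the rats included. Those that left out the arrays that stand apart, or fitted the first component, were chosen after seeing the data.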

Additional observations from a re-analysis of the deposited data

Results flagged for a closer look

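For the genes named other than Pdgfra, the rat furthest from the rest of its vehicle set of 6 was compared with the range of the set (Dixon's ratio), which chance does in about 1 in 20 sets. Of 172 sets 10 passed, and 5 of these concerned rat 12. Within replicates 1 to 6, Ttr was 11.56 in rat 4, with 7.48 to 8.45 in the others. Slc17a7 was 12.60 in rat 4, with 12.77 to 12.87 in the others. Nr1d1 was 8.82 in rat 1, with 9.17 to 9.29 in the others, and Lrp6 was 8.22 in rat 3, with 7.92 to 8.02 in the others. Within replicates 7 to 12, rat 12 was low for Stx1a (10.78), Grin1 (11.02), Pvalb (9.33) and Bdnf (6.11), and high for C1qb (8.50). The others had 11.06 to 11.13 for Stx1a, 11.13 to 11.19 for Grin1, 9.65 to 9.82 for Pvalb, 6.52 to 6.75 for Bdnf and 8.16 to 8.28 for C1qb. Vamp2 was 11.92 in rat 7, with 11.63 to 11.73 in the others.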

How the results depend on the processing

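No paired analysis was possible because the replicate number itself defines the sets, and the sets share no number. The vehicle counts of 938 probe sets above and 530 below became 924 and 417 after median centring, 875 and 612 after a new quantile normalization, and 836 and 310 in the brighter part of the probe sets, where fewer were examined. Leaving out 1 vehicle rat gave 942 to 1217 above and 584 to 706 below, and leaving out rats 4 and 5 gave 1609 and 1404. The dosed counts of 9815 higher and 8454 lower became 6354 and 4965 in the brighter part, 5137 and 4597 in deltamethrin rats alone, 4815 and 5906 without the arrays that stand apart, and 5840 and 8295 with the first component as covariate. Leaving out 1 dosed rat gave 9197 to 10542 higher and 8110 to 8641 lower. Median centring gave 13204 and 6777 and moved the median difference of all probe sets by 0.05. The count of 0 for the difference between compounds was 1 with an intensity trend, 1 with the first component as covariate, 1 without the arrays that stand apart, and 0 to 2668 without 1 dosed rat. Dosed differences that changed sign without the arrays that stand apart became 0.06 for Snap25, 0.27 for Gria2, 0.18 for Gria3, 0.08 for Gabrb2, 0.30 for Scn1a, 0.28 for Scn2a, 0.42 for Nr1d2, 0.06 for Luc7l3, 0.07 for Rbm39, -0.09 for Csf1r, -0.07 for C1qb, 0.10 for Aqp4, -0.06 for Fos, 0.12 for Slc17a6, 0.19 for Clk1 and 0.27 for Prpf39. With the first component as covariate, the differences of called genes that changed sign became 0.04 for Snap25, 0.18 for Gria2, 0.07 for Gria3, 0.23 for Scn1a, 0.19 for Scn2a, 0.34 for Nr1d2, -0.03 for Per1, -0.01 for Csf1r, 0.00 for C1qb, 0.09 for Aqp4, -0.05 for Fos, 0.07 for Slc17a6, 0.00 for Rassf5 and 0.08 for Prpf39. The cause was not tested. Of the 86 named genes other than Pdgfra, 13 lost their dosed call in deltamethrin rats alone, 5 in permethrin rats alone, 6 without the arrays that stand apart and 5 with the first component as covariate, all keeping their direction. None of the 86 changed sign in vehicle rats beyond the spread of a set under the alternatives run.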

Other observations

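The other gene lists were described by the same counts in dosed rats numbered 1 to 3, first over all 48 arrays and then without the arrays that stand apart. Of 36 proteasome subunits, which degrade tagged proteins, 20 were higher and 6 lower, and then 8 higher and 6 lower, with medians of 0.17 and 0.08. Of 5 oligodendrocyte precursor markers 4 were higher and 1 lower, and then 1 higher and 2 lower. The 8 endothelial and mural markers had 4 higher and 2 lower, and then 2 higher and 1 lower. Of 8 markers of striatal neurons, a neighbouring region, 2 were higher and 3 lower, and then 0 higher and 3 lower. Late activity-regulated genes had 1 of 10 higher and 5 lower, and then 4 higher and 1 lower. Glucocorticoid-responsive genes had 6 of 16 higher and 4 lower, and then 2 higher and 4 lower. For 12 chaperones the counts were 6 higher and 3 lower, and then 2 higher and 3 lower. For 15 genes of endoplasmic reticulum stress they were 6 higher and 3 lower, and then 3 higher and 3 lower. Of 10 calcium channel alpha1 subunits 3 were higher and 2 lower, and then 2 higher and 2 lower. Of 8 genes often used as references 1 was higher and 2 lower, and then 2 higher and 3 lower. Over all genes 39.3% were higher and 23.9% lower, and then 14.8% higher and 20.4% lower.

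Oxt, the gene of the hypothalamic peptide oxytocin, was picked after its values were seen, as the gene with the highest positive weight on the first component of the vehicle rats. It had 7.59, 8.45, 9.96, 11.09, 10.05 and 8.20 in vehicle rats 1 to 6, against 8.69, 8.34, 8.99, 8.46, 8.46 and 9.67 in rats 7 to 12. Rats 3, 4 and 5 were the highest of all 12, and the sets overlapped. In dosed rats Oxt differed by -0.68 ± 0.19 (SE, limma adjusted p = 0.00259), and by -0.77 without the arrays that stand apart (limma adjusted p = 0.0539).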
